A study of Citrullus lanatus with 6 samples.

Results

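The photosystem II genes described here are 7 genes of watermelon (Citrullus lanatus) that code for 5 subunits of the complex, namely PsbO, PsbP, PsbQ, PsbS and PsbW. They are 7 of the 23568 genes in the table. They were chosen by their lower expression in salt-stressed leaves, as a list of identifiers that the study names as down-regulated. The choice thus rests on the same libraries and the same contrast, and their differences between salt and control are given as a description without a test. Leaves came from seedlings of cv. Crimson Sweet, 6 weeks old, that were lifted from a soilless medium, washed and placed for 7 h in tubes with 300 mM NaCl (salt) or with pure water (control). Each treatment had 3 libraries, from plants described as independent, and every plant of both treatments had been uprooted and washed. The titles of the treated samples say drought-stressed, while their treatment field, the series title and the methods say salt, and they are treated as salt libraries here.

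Photosystem II is the complex of the thylakoid membrane that takes electrons from water and releases oxygen. PsbO, PsbP and PsbQ are the extrinsic proteins on its lumen side that hold and protect the manganese cluster where water is split. PsbW is a small membrane subunit that in Arabidopsis stabilizes the supercomplex of photosystem II with its antenna, and PsbS is a membrane protein that senses lumen acidity and triggers the dissipation of excess light energy as heat. All 5 are coded in the nucleus, whereas the reaction center proteins are coded in the plastid.

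Values are FPKM, fragments scaled to gene length and to a total of fragments per library, as the authors deposited them. Differences between salt and control are on the log2(FPKM + 0.5) scale, with standard errors from limma. The totals recovered from the values were 18838185 to 21258223 fragments per library, and the control and salt totals overlapped. Fragments recovered in genes made up 99.6% to 99.7% of each total, so the totals stand for fragments counted in genes. The fragments counted in the 7 genes ranged from 181, for a PsbQ gene in salt replicate 2, to 39325, for PsbS in control replicate 2, so that counting error was at most 7.43% of a value and smaller than the spread between libraries. Of the 11 chlorophyll a-b binding protein genes, which mark green leaf tissue, 10 had at least 36.1 FPKM in every control library. In the salt libraries, values of most genes were shifted downwards, with a median log2 difference of -0.57 over the 16638 genes tested, those averaging 0.5 FPKM or more.

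All 7 photosystem II genes were lower in salt-treated than in control leaves, with no overlap between the 3 salt and the 3 control libraries. This held for 43.4% of all genes tested, and since the study chose the 7 genes as down-regulated, nothing follows from their count. The choice fixed the limma call in the same way, and the call is given only beside its background. At an adjusted p below 0.05 all 7 were lower, as were 34.2% of all genes tested, while 47.8% differed in either direction. Of the genes that differed, 71.5% were lower in the values as deposited and 48.1% after median-ratio scaling of the libraries. The log2 differences ran from -3.27 to -2.02 with a median of -2.90, against a median of -0.57 over all genes tested. In bulk leaf RNA, fewer photosynthetic cells and less of these transcripts per cell cannot be told apart.

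PsbO (ClCG01G016370), the extrinsic subunit that stabilizes the manganese cluster, had 355, 444 and 818 FPKM in control replicates 1 to 3 and 145, 72.0 and 185 FPKM in salt replicates 1 to 3. The highest salt library thus stayed below the lowest control library by a factor of 1.92. The means were 539 ± 246 (SD, n = 3) for control leaves and 134 ± 57.1 (SD, n = 3) for salt-treated leaves, and the log2 difference was -2.02 (standard error 0.440), the smallest of the 7 but within its error of that of PsbQ-2.

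PsbP (ClCG07G010800), which helps to retain calcium and chloride at the water-splitting site, had 650.0, 669.7 and 1086 FPKM in the control libraries and 249, 32.9 and 104 FPKM in the salt libraries. Salt replicate 1 was 7.56 times as high as salt replicate 2, the widest spread within salt among the 7 genes. The log2 difference was -3.03 (standard error 0.656), from means of 802 ± 246 (SD, n = 3) and 129 ± 110.2 (SD, n = 3) FPKM.

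PsbQ, the third extrinsic subunit, was represented among the 7 by a pair of genes of very different level. PsbQ-1 (ClCG03G005130, described as oxygen-evolving enhancer protein 3-1) had 458, 532 and 1095 FPKM in control and 166, 28.9 and 60.9 FPKM in salt libraries. Its log2 difference of -3.27 (standard error 0.619) was the largest of the 7, but those of PsbW-B, PsbP and PsbW-A lay within its error. The salt mean of PsbQ-1 was 12.3% of its control mean. PsbQ-2 (ClCG05G000900, oxygen-evolving enhancer protein 3-2) had 95.8, 65.2 and 216 FPKM in control and 53.4, 17.0 and 20.2 FPKM in salt libraries. Salt replicate 1 lay close under control replicate 2, and the log2 difference was -2.04 (standard error 0.542). When libraries were scaled by their median ratio, its treatments overlapped. Without salt replicate 2, or without salt replicate 3, it was the 1 gene of the 7 that was not past the limma threshold.

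Both PsbW genes were lower in salt by similar amounts. The gene called PsbW-A here (ClCG02G016710) had 132, 145 and 163 FPKM in control and 33.2, 10.1 and 20.8 FPKM in salt libraries. Its control libraries were close to each other, the gap between the treatments was the widest of the 7, with a factor of 3.98 between the lowest control and the highest salt library, and the log2 difference was -2.90 (standard error 0.399). PsbW-B (ClCG09G007590) had 338, 300.4 and 682 FPKM in control and 98.1, 22.0 and 52.7 FPKM in salt libraries, with a log2 difference of -3.07 (standard error 0.548).

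PsbS (ClCG08G005640), the sensor of heat dissipation, was the most abundant of the 7 in every library. It had 1596, 1714 and 1756 FPKM in control, where its coefficient of variation of 4.91% was the smallest of the 7, and 353, 116 and 615 FPKM in salt libraries, where it was 69.1%. The log2 difference was -2.52 (standard error 0.569), and the salt mean was 21.4% of the control mean.

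**Figure D1:**
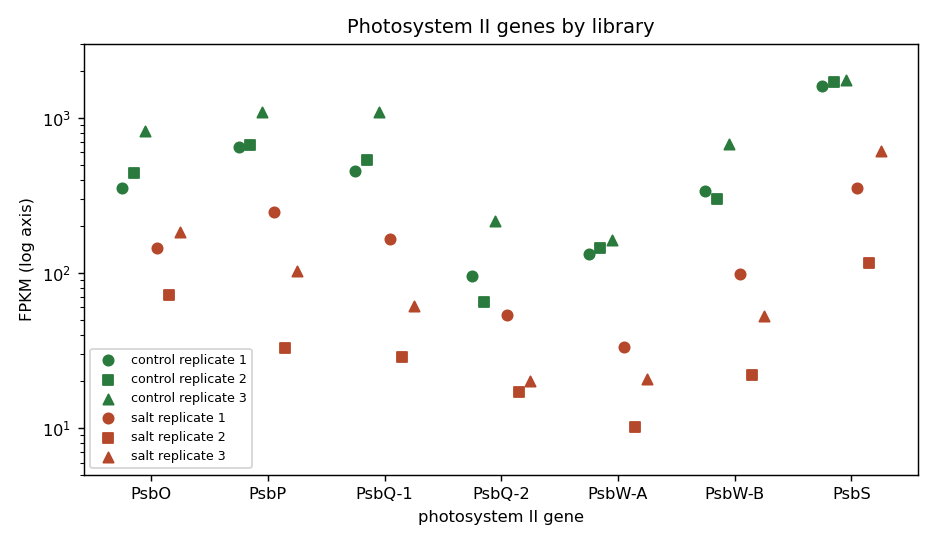
FPKM (log axis) of the 7 photosystem II genes (horizontal axis) in the 3 control libraries (green) and the 3 salt libraries (red), with a marker shape for each replicate number. In every gene the red points lie below the green ones, control replicate 3 is the highest of the controls and salt replicate 2 is the lowest of all libraries.

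The 7 genes shared their highest control library and their lowest salt library, but not the lowest control or the highest salt library. Control replicate 3 was the highest control library for 7 of 7 genes, against 42.6% of all genes tested, and salt replicate 2 was the lowest salt library for 7 of 7, against 53.2%. Both held at once for all 7 genes and for 23.9% of all genes tested. The choice of the genes did not use this order directly, but the order may not be independent of it. Salt replicate 2 also had the lowest median over all genes tested, and the shares among genes lower in salt alone were not computed. The excess in control replicate 3 was uneven. PsbS and PsbW-A were higher there by 0.06 and 0.15 on the log2 scale than the control mean, whereas PsbP, PsbO, PsbW-B, PsbQ-1 and PsbQ-2 were higher by 0.48, 0.69, 0.73, 0.77 and 0.96.

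The size of the difference varied among the salt libraries. Compared with the control mean, the median log2 difference of the 7 genes was -1.95 in salt replicate 1, -3.86 in salt replicate 2 and -2.78 in salt replicate 3. The median over all genes tested was -0.40, -0.77 and -0.48 in the same libraries, so the order of the libraries was the same but the distances were larger in the photosystem II genes. The choice of genes lower in salt favours larger distances, so nothing follows from them. In salt replicate 1 the 7 genes lay within a narrow band, from -2.25 for PsbS to -1.04 for PsbQ-2. In salt replicate 2 they spread from -4.54 for PsbP to -2.67 for PsbQ-2, and in salt replicate 3 from -3.39 for PsbQ-1 to -1.45 for PsbO. PsbO and PsbS were higher in salt replicate 3 than in salt replicate 1, while the other 5 genes were higher in salt replicate 1.

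**Figure D2:**
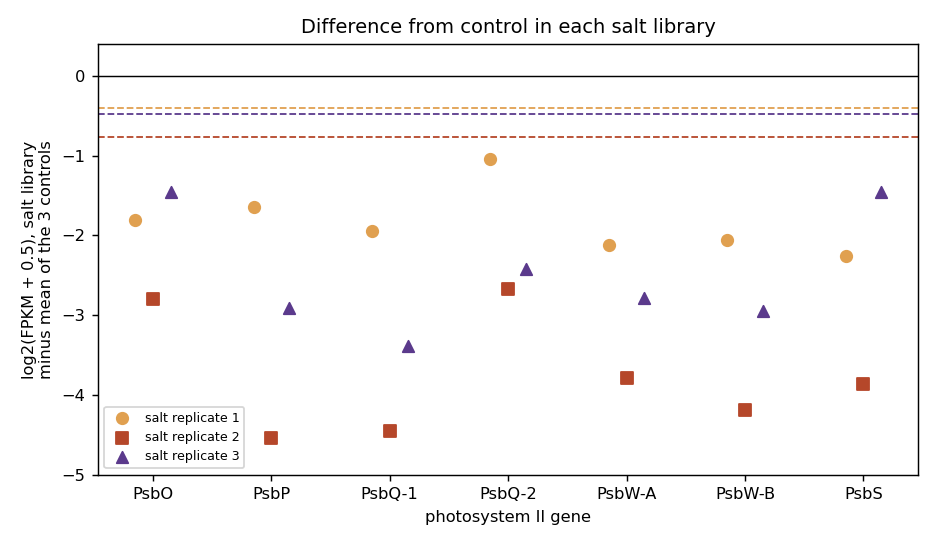
Difference of each salt library from the mean of the 3 control libraries on the log2(FPKM + 0.5) scale (vertical axis) for each photosystem II gene (horizontal axis), with the median of all genes tested in the same library as a dashed line in the same colour. All 21 points lie below the dashed line of their library, which the choice of genes lower in salt favours, and salt replicate 2 is lowest for each gene.

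The 7 genes together took a smaller share of all FPKM in salt libraries. The share was 0.475%, 0.498% and 0.779% in control replicates 1 to 3, a mean of 0.584% ± 0.169 (SD, n = 3), and 0.159%, 0.0403% and 0.148% in salt replicates 1 to 3, a mean of 0.116% ± 0.0654 (SD, n = 3). The treatments did not overlap. PsbS made up the largest part of the 7-gene sum in every library, 39.5% ± 8.06 (SD, n = 3) for control leaves and 43.0% ± 13.5 (SD, n = 3) for salt-treated leaves. PsbO made up 11.8% ± 2.15 (SD, n = 3) for control leaves and 18.2% ± 5.51 (SD, n = 3) for salt-treated leaves, and control replicate 3 (14.1%) was above salt replicate 1 (13.2%), so that the shares of PsbO overlapped, as did those of the other 6 genes. Between libraries with the same replicate number, which deviated together weakly, the share of PsbO was higher in salt in 3 of 3 pairs. The shares of PsbW-A and PsbW-B were lower in 3 of 3. In replicates 1 to 3 these changes were -0.62, -0.37 and -0.83 percentage points for PsbW-A and -0.39, -0.41 and -6.74 for PsbW-B. The shares are parts of the same sum, so they do not move independently, and no background was computed for them.

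The order of the levels was PsbS, PsbP, PsbQ-1, PsbO, PsbW-B, PsbW-A and PsbQ-2 by the control means. PsbS stood clear of PsbP, and PsbW-B clear of PsbW-A, in the ranges of the 3 control libraries, while the ranges of the other neighbours overlapped. In salt the order by means was PsbS, PsbO, PsbP, PsbQ-1, PsbW-B, PsbQ-2 and PsbW-A, and the ranges of all neighbours overlapped. FPKM divides by gene length, and the lengths recovered from the values were 555 bases for PsbQ-2, 655 for PsbW-B, 989 for PsbQ-1, 1038 for PsbW-A, 1079 for PsbS, 1203 for PsbP and 1394 for PsbO. A level compared between genes depends on these lengths, but a change of the ratio between treatments does not.

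Ratios between subunits within a library were compared next, since they do not depend on how the libraries are scaled. Of the 21 ratios, 3 (14.3%) had no overlap between control and salt libraries. Pairs of other genes were taken from the 11746 genes that averaged 5 FPKM or more and were above 0 in every library. Among all these pairs 61.2% had none, and among pairs of genes that were both lower in salt by limma, 37.4% had none. The second share is the closer comparison, because the choice of the 7 genes fixed their common direction. The count of 3 depended on single libraries. It was 10 without salt replicate 1, 7 without control replicate 3 and 6 without salt replicate 3, where 53.5%, 45.8% and 49.5% of the pairs of lower genes had no overlap. Between libraries with the same replicate number, 6 of the 21 ratios moved in one direction in 3 of 3 pairs, as did 55.1% of the pairs of lower genes. These were the 3 ratios without overlap, PsbP to PsbO, and PsbO to PsbW-A and to PsbW-B.

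PsbQ-1 was lower relative to PsbO in salt. Their ratio was 1.29, 1.20 and 1.34 in control replicates 1 to 3 and 1.15, 0.401 and 0.330 in salt replicates 1 to 3. The log2 change was -1.26 (standard error 0.562 between libraries, 0.560 within pairs). Control ratios were nearly equal, salt replicate 1 lay just below them, and salt replicates 2 and 3 were far lower. PsbP to PsbO showed the same split among salt libraries. That ratio was 1.83, 1.51 and 1.33 in control and 1.72, 0.457 and 0.561 in salt libraries. Salt replicate 1 thus fell inside the control range and the treatments overlapped, although the ratio was lower in salt in 3 of 3 pairs with the same replicate number. The log2 change was -1.02 (standard error 0.609 between libraries, 0.485 within pairs). PsbO to PsbW-B was 1.05, 1.48 and 1.20 in control and 1.47, 3.28 and 3.50 in salt libraries. Again salt replicate 1 lay within the control range and the ratio was higher in salt in 3 of 3 pairs. The log2 change was 1.06 (standard error 0.426 between libraries, 0.308 within pairs). In salt replicates 2 and 3 the PsbO gene thus had the highest FPKM among the listed genes of the 3 extrinsic subunits. In the other 4 libraries it was below PsbP and PsbQ-1. Further gene copies of these subunits were not looked for.

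The ratio of the PsbQ genes separated between the treatments, as did 37.4% of the ratios between genes lower in salt, and that of the PsbW genes did not. PsbQ-1 to PsbQ-2 was 4.78, 8.17 and 5.06 in control and 3.11, 1.70 and 3.01 in salt libraries, with no overlap. The log2 change was -1.21 (standard error 0.375 between libraries, 0.528 within pairs). Within the pairs of replicates 1 to 3 it was -0.62, -2.27 and -0.75, so the pair of replicate 2 moved most. PsbQ-1 accounted for 85.1% ± 3.48 (SD, n = 3) of the FPKM of both PsbQ genes in control and 71.2% ± 7.18 (SD, n = 3) in salt. PsbW-B to PsbQ-2 was the third ratio without overlap, with a log2 change of -1.02 (standard error 0.334 between libraries, 0.452 within pairs). PsbW-B to PsbW-A was 2.56, 2.07 and 4.19 in control and 2.95, 2.18 and 2.53 in salt libraries, a log2 change of -0.15 (standard error 0.328), and PsbW-B made up 73.3% ± 6.79 (SD, n = 3) and 71.6% ± 3.09 (SD, n = 3) of both. Reads that fit both copies of a subunit equally well are left out of uniquely mapped counts, and how many were lost from each copy was not analysed here.

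PsbP, PsbQ-1 and PsbW-B stayed close to each other. PsbP to PsbQ-1 had a log2 change of 0.24 (standard error 0.228), PsbP to PsbW-B of 0.04 (standard error 0.260) and PsbQ-1 to PsbW-B of -0.19 (standard error 0.198), and in each of these ratios the treatments overlapped. PsbS to PsbO was 4.49, 3.86 and 2.15 in control and 2.44, 1.61 and 3.33 in salt libraries, with overlap and a log2 change of -0.50 (standard error 0.445). Against PsbQ-1 and PsbP, PsbS stood highest in salt replicate 3, at 10.1 and 5.94 times their level, compared with 2.12 and 1.42 times in salt replicate 1. Against PsbO, salt replicate 3 lay inside the control range and salt replicate 2 was the one below it.

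**Figure D3:**
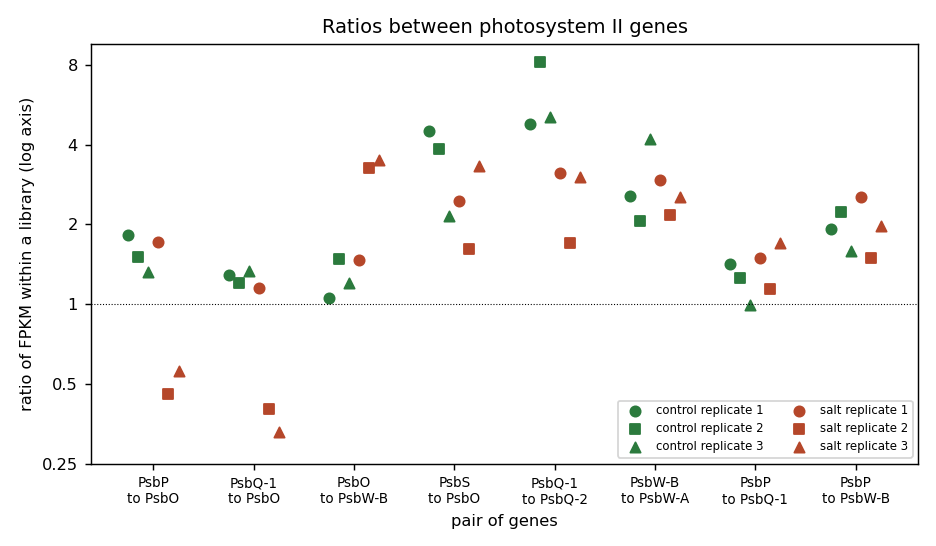
Ratios of FPKM within a library (log axis) for 8 of the 21 pairs of photosystem II genes (horizontal axis), in control (green) and salt libraries (red) with a marker for each replicate number. Salt replicates 2 and 3 lie apart from the controls in the ratios of PsbP, PsbQ-1 and PsbW-B with PsbO while salt replicate 1 lies near or among them, and only PsbQ-1 to PsbO and PsbQ-1 to PsbQ-2 show no overlap here.

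The other photosynthesis genes that the study lists are also those it found down-regulated in these libraries, so their direction is no independent evidence either. All 8 photosystem I genes, all 6 genes of electron transfer and ATP synthase and all 11 antenna genes were lower in salt without overlap and at an adjusted p below 0.05 from limma. Of all genes tested, 43.4% were lower without overlap and 34.2% were lower by that limma threshold. Their median log2 differences were -2.45, -3.02 and -2.75, beside -2.90 for photosystem II, and the range of the 7 photosystem II genes overlapped that of each of the other lists. In photosystem I the differences ran from -4.32 for PsaE (ClCG11G010230), a stromal subunit, to -2.08 for PsaH (ClCG07G013150), a subunit at the docking site of mobile antenna proteins. In the third list they ran from -4.34 for the gamma subunit of ATP synthase (ClCG03G004720) to -1.97 for its delta subunit (ClCG08G002530), with -3.67 for plastocyanin (ClCG05G015390), the copper protein that carries electrons to photosystem I. Among the antenna genes they ran from -3.69 (ClCG03G012070) to -1.76 (ClCG03G006930, at most 1.95 FPKM in any library).

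The library pattern of the photosystem II genes was shared in part by these lists. Control replicate 3 was the highest control for 7 of 8 photosystem I genes, 5 of 6 genes of electron transfer and ATP synthase and 8 of 11 antenna genes, against 42.6% of all genes tested. Salt replicate 2 was the lowest salt library for 8 of 8, 6 of 6 and 10 of 11, against 53.2% of all genes tested. The summed FPKM of photosystem II genes in salt replicate 2 was 299, compared with 1098 and 1058 in salt replicates 1 and 3. That of the antenna genes was 184, compared with 2131 and 884. In salt replicate 3 the photosystem II sum was thus close to that of salt replicate 1, while the antenna sum was well below it.

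**Figure D4:**
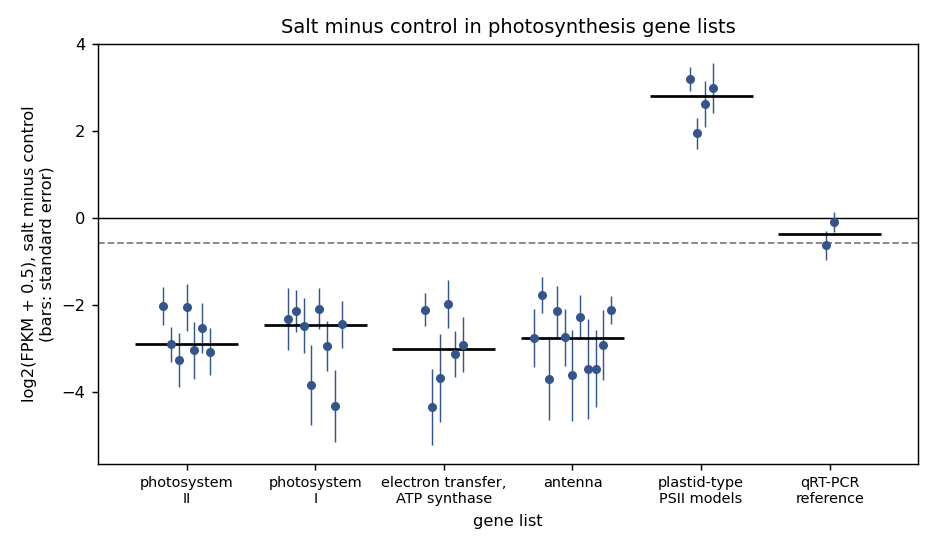
Salt minus control difference on the log2(FPKM + 0.5) scale (vertical axis) for single genes of 6 lists (horizontal axis), with standard errors as bars, list medians as black lines and the median of all genes tested, -0.57, as a dashed line. Photosystem II, photosystem I, electron transfer with ATP synthase and antenna genes all lie below the dashed line, and the plastid-type models lie above 0.

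The 4 gene models of photosystem II proteins of the kind coded in plastids moved the other way. In the study's list they are described as Q(B) protein, reaction center protein J and protein N of the photosystem. They were all higher in salt without overlap and at an adjusted p below 0.05 from limma, as were 17.7% and 13.6% of all genes tested, and they too come from a list of genes chosen as up-regulated. The more abundant model of the Q(B) protein (ClCG00G002330), the reaction center protein known as D1, had 4.66, 4.66 and 7.31 FPKM in control and 49.4, 50.4 and 63.3 FPKM in salt libraries. The other one (ClCG07G009460) had 0, 0.603 and 0 FPKM in control and 2.25, 4.90 and 8.92 FPKM in salt libraries. The models for PsbJ (ClCG02G011240) and PsbN (ClCG02G007570) reached at most 6.33 and 11.1 FPKM in any library. Whether their fragments came from nuclear or plastid RNA was not tested.

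The study normalized its qRT-PCR to actin (ClCG02G000680) and alpha-tubulin (ClCG02G024360). These had log2 differences of -0.62 (standard error 0.341) and -0.08 (standard error 0.230), and neither passed the test. Actin had 320, 280 and 308 FPKM in control and 200, 124 and 302 FPKM in salt libraries, a salt mean of 69.0% of the control mean. Alpha-tubulin had 21.3, 19.6 and 23.6 FPKM in control and 18.6, 19.0 and 23.4 FPKM in salt libraries.

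The genes whose profile over the 6 libraries was most like the mean of the 7 photosystem II genes were then sought among 11930 genes averaging 5 FPKM or more. Since the treatment sets most of such a profile, 25.8% of these genes had a Pearson r above 0.9, and r is given as a description over 6 libraries. The 5 highest were ClCG11G016420 (r = 0.9995), PsaG of photosystem I (ClCG10G004510, r = 0.999), ClCG11G003140 (r = 0.999), ClCG05G018790 (r = 0.998) and ClCG02G019670 (r = 0.998). PsaG had 620.2, 689 and 1309 FPKM in control and 223, 45.8 and 121 FPKM in salt libraries. The other 4 carry no description in the sources used here. Among the 7 members, PsbW-B followed the mean of the other 6 most closely (r = 0.998) and PsbS least (r = 0.920).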

How the data were processed

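Leaf RNA of 3 control and 3 salt-treated seedlings was sequenced as paired-end reads. The authors cleaned the reads, aligned them to the genome of cv. Charleston Gray and deposited FPKM values per gene and library, from uniquely mapped reads, with no normalization between libraries. The methods name Bowtie, TopHat, HTSeq and DESeq, while the submitters' processing notes name fastp, HISAT2 2.1.0, featureCounts and DESeq2, and the file does not settle which made the values. No genome or annotation was used here, so that neither coordinates nor sequences are given.

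Values were put on the log2(FPKM + 0.5) scale, genes averaging 0.5 FPKM or more were kept, and limma 3.58.1 (under R 4.3.3) was fitted with a variance trend and Benjamini-Hochberg adjustment over all 16638 genes. This fit was also run on simulated data with few changed genes, as many up as down, and the same spread in both groups. Such data lack the broad shift seen here, so the run does not show how the fit behaves under it. Ratios used FPKM without a pseudocount, and their standard errors are between libraries unless given as within pairs. The log2 scale with a pseudocount understates the change of weak genes. Whole fragments and gene lengths behind the FPKM values were found by searching for library totals and lengths at which values become whole. On simulated data this gave 6 of 6 totals and the fragments of 98.6% of 2527 genes. The fragments serve only for depth, lengths and counting error. Figures were drawn with matplotlib 3.10.9 in Python 3.11.15.

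Salt and control libraries that share a replicate number deviated together weakly from their group means. The correlations across genes were 0.175, 0.105 and 0.128, each above the threshold used, 0.1. Between libraries of different number they ran from -0.108 to -0.039. Shares and ratios were therefore also read within pairs of the same number. The pairing comes from these data alone, since no source states one. Deviations from a group mean cancel within the group, so the correlations behind the pairing are not independent of each other. The fit without the block is reported. The members and lists were chosen with earlier results of these data known. The named genes are the 7 members, the lowest and the highest gene of each other list with plastocyanin, the reference genes and the plastid-type models, and the 5 genes most like the members. P-values from limma set the difference between treatments against the spread between these libraries.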

Additional observations from a re-analysis of the deposited data

How the results depend on the processing

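All 7 photosystem II genes kept a lower value in salt under every alternative run, namely pseudocounts of 0.1 and 1, median-ratio and common-sum scaling, no filter on low values, no variance trend, the replicate block and each library left out. The choice of the genes fixed this direction, so it lends no support. PsbQ-2 was not past the limma threshold without salt replicate 2 or without salt replicate 3. The median of their log2 differences ran from -3.29 to -2.27 over all of these. Median-ratio scaling moved the median of all genes tested from -0.57 to -0.03 and that of the photosystem II genes to -2.32, so that their distance was -2.33 as deposited and -2.29 after scaling. Of all genes called, 71.5% were lower as deposited and 48.1% after median-ratio scaling. The genes without overlap numbered 6 of 7 after that scaling and 7 of 7 otherwise. The replicate block gave 8016 genes called in place of 7950 and changed no call of a photosystem II gene. Read within pairs of the same replicate number, an alternative chosen after seeing the data, the ratios that moved in one direction numbered 6 of 21, and those without overlap between all libraries 3. With each library left out in turn, genes called ranged from 5329 to 7541, the salt minus control difference in the share of summed FPKM from -0.523 to -0.371 percentage points (-0.468 with all libraries), and the ratios without overlap from 3 to 10 of 21. Depth did not limit the members, whose lowest value rests on 181 fragments.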
